A study of Mus musculus with 12 samples.

Results

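Transcripts of 9 elastic fibre and microfibril genes were followed in cardiac fibroblasts of mice with an infarct. The genes were elastin (Eln), fibrillin 1 (Fbn1), the fibulins Fbln1, Fbln2 and Fbln5, the microfibril-associated proteins Mfap2, Mfap4 and Mfap5, and Emilin1. They were taken by gene symbol as a family of known function, and make up 9 of the 18771 genes in the deposited table. All 9 had a value in each of the 12 libraries and passed the filter on low counts, which kept 13600 genes for testing.

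The study asked what Pfas, which encodes an enzyme of de novo purine synthesis, does in fibroblasts of the injured heart. Libraries of poly(A)-selected RNA were made from left ventricular cardiac fibroblasts collected 3 days after a coronary artery, the left anterior descending, had been tied off for good. The 6 control libraries carried the genotype PDGFRa CreER/+;Pfas fl/+, and the 6 Pfas CKO libraries the genotype PDGFRa CreER/+;Pfas fl/fl, so that infarction, the tamoxifen-dependent Cre and at least 1 floxed Pfas allele were shared by both groups. Pfas CKO mice had tamoxifen on 3 occasions, 7 days and 3 days ahead of the infarct and 1 day past it. The labels state no tamoxifen for control mice, so tamoxifen and genotype cannot be told apart. The Cre is driven from Pdgfra and therefore acts in cells that use this gene, and the labels do not say how old the mice were or how many gave each library. If libraries of a group share mice or preparations, the p-values below describe variation between libraries and not between animals.

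Elastic fibres let tissue recoil after stretch. They consist of a core of cross-linked elastin laid down on a scaffold of microfibrils, which are built from fibrillins and decorated with microfibril-associated proteins. Fibulins and EMILINs link elastin to the microfibrils and to cells, and lysyl oxidases cross-link the deposited elastin. Fibrillin microfibrils also hold latent TGF-beta in the matrix through latent TGF-beta binding proteins. In the heart fibroblasts are a main source of these proteins, and vascular smooth muscle cells make elastin as well.

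The libraries held between 20320133 and 20950074 estimated read counts each. They did not behave as 12 independent samples. Control 1 to 3 were near copies of each other, as were control 4 to 6 and Pfas CKO 1, 3, 5 and 6, whereas Pfas CKO 2 and Pfas CKO 4 stood apart from these and from each other. The mean chi-square per gene, which is 1 for sampling noise alone, was 1.68 to 5.22 within these sets, 17.5 to 39.9 between sets of a group and 169 to 253 between the groups. The submitters' processing notes name tools for 9 libraries and none for control 1 to 3, so the control sets may differ in how they were processed. The 9 libraries were control 4 to 6 and all of Pfas CKO. Fold changes against both control sets may therefore mix such a difference with genotype. Pfas stood at 22.4 to 24.9 CPM, the count scaled to the size of its library, in control and at 8.01 to 17.4 CPM in Pfas CKO, with its highest Pfas CKO values in libraries 2 and 4 (17.4 and 14.5 CPM). The fibroblast label was borne out by the fibroblast markers, which gave a sum of 18381 to 21410 CPM over control and 15640 to 17623 CPM over Pfas CKO libraries (6 of 11 higher and 5 lower). The sum was lower in Pfas CKO while the median log2 fold change of these markers was 0.47, so the sum alone does not show fewer fibroblasts. Other cells were also present. Macrophage markers gave 6291 to 6908 CPM over control and 7200 to 8968 CPM over Pfas CKO libraries (6 of 14 higher, 5 lower), smooth muscle and pericyte markers to 564 to 611 and 657 to 695 CPM (6 of 11 higher, 2 lower), and endothelial markers to 861 to 905 and 947 to 1206 CPM (7 of 9 higher, 2 lower). Cardiomyocyte markers summed to 17.0 to 19.1 and 41.2 to 54.2 CPM (7 of 8 higher, none lower), neutrophil markers to 226 to 251 and 126 to 209 CPM (3 of 6 higher, 2 lower), erythrocyte markers to 8.60 to 9.51 and 129 to 211 CPM (5 of 5 higher) and mesothelial markers to 7.54 to 8.24 and 5.70 to 8.78 CPM (2 of 6 higher, 2 lower). The most abundant markers, with mean CPM in control and then Pfas CKO, were Col3a1 (7009 and 4972), Lyz2 (3231 and 3034), Acta2 (158 and 127), Fabp4 (152 and 236), Mb (5.30 and 10.6), Mmp8 (154 and 25.6), Hbb-bs (3.13 and 81.7) and Wt1 (3.57 and 4.32). These sums rest on TMM scaling. The counts of markers called stand beside 33.4% of all genes called higher and 35.2% called lower by the test described below. No listed marker in the table was at 0 in every library. The part of these cells in the results below was not tested, and in bulk RNA fewer cells of a type and less RNA per cell cannot be told apart.

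Of the 9 genes 6 rose in Pfas CKO, none fell, and elastin itself did not pass the test. Fbln5 and Fbln2, both fibulins, rose most, by 0.92 and 0.70 on the log2 scale, and Mfap4, Fbln1, Mfap5 and Fbn1 rose by 0.18 to 0.41. Eln, Emilin1 and Mfap2 did not pass. The test was edgeR's quasi-likelihood test with Benjamini-Hochberg adjustment over all 13600 genes and a threshold of 0.05, on counts scaled by TMM. By that test and threshold 6 of the 9 genes were called, against 68.6% of all genes tested, which is close to the share among the 9. Higher calls were 6 of 9, against 33.4% of all genes. The median log2 fold change of the 9 genes was 0.29 and that of all genes -0.024. None of the 9 reached a 2-fold change, which 13.1% of all genes did, and 2 of 9 rose at least 1.5-fold, against 15.2% of all genes.

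The sizes of these changes depend on how libraries are scaled against each other. Scaling by library totals alone moved the median of all genes from -0.024 to -0.26, and log2(TPM + 1) moved it to -0.28. Under both, Fbln2 and Fbln5 were still called higher and no other of the 9 genes passed. These 2 of 9 stood against 20.4% of all genes called higher with library totals and 18.3% on log2(TPM + 1), which is close to the share among the 9. With near-identical libraries added up, which left 2 control and 3 Pfas CKO samples, these 2 genes were again the ones called (adjusted p = 0.00362 for Fbln2 and 0.0191 for Fbln5 by edgeR). There 18.3% of all genes were called higher.

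**Figure D1:**
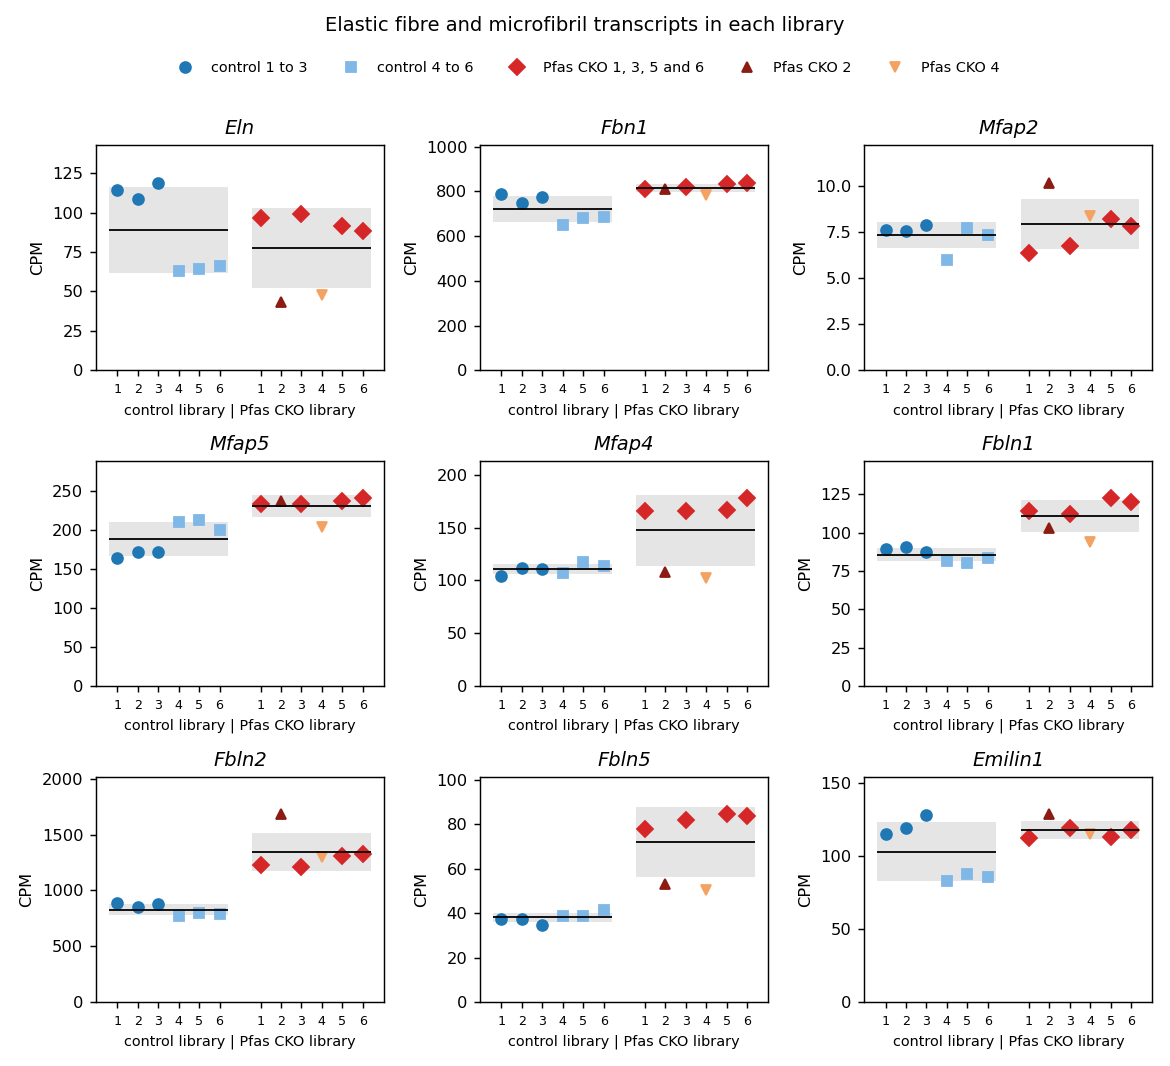
CPM (TMM-scaled) of each of the 9 genes in the 6 control and 6 Pfas CKO libraries; each point is a library, coloured by its near-identical set, the line is the group mean and the band is 1 SD. Fbln1, Fbln2 and Fbln5 are the panels in which all Pfas CKO points lie above all control points under this scaling, and in the Eln panel control 1 to 3 (108 to 119 CPM) lie above control 4 to 6 (62.7 to 66.4 CPM).

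Elastin is the protein that gives the fibre its recoil, and its transcript varied more within each group than between the groups. Eln (gene ID 13717; GRCm38 chromosome 5, 134702593 to 134747323, minus strand, coding for protein) stood at 114, 108 and 119 CPM in control 1 to 3 and at 62.7, 64.1 and 66.4 CPM in control 4 to 6. In Pfas CKO 1, 3, 5 and 6 it stood at 96.8, 98.8, 91.4 and 88.3 CPM, and in Pfas CKO 2 and 4 at 43.4 and 47.5 CPM. The level in most Pfas CKO libraries thus lay between those of the control sets, and Pfas CKO 2 and 4 lay below every control library. The mean over control libraries was 89.1 ± 27.3 CPM and that over Pfas CKO libraries 77.7 ± 25.3 CPM (SD, n = 6 each). The log2 fold change was -0.20 ± 0.231 (SE), with an edgeR adjusted p of 0.459. This does not show that elastin was unaffected, since the direction turned with the libraries compared. Against control 1 to 3 alone the log2 fold change was -0.55 (edgeR adjusted p = 0.0571), against control 4 to 6 alone it was 0.27 (0.367), and without Pfas CKO 2 and 4 it was 0.060 (0.787).

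The difference between the control sets was itself large for elastin. Control 1 to 3 held 1.79-fold more Eln than control 4 to 6 (log2 difference -0.84 ± 0.0408 for control 4 to 6 minus control 1 to 3; edgeR adjusted p = 4.63e-13). Libraries within a control set were near copies, so this SE and adjusted p describe variation between near copies and not between sets. The length implied by the deposited counts and FPKM values was 3547 to 3661 bases for Eln over all 12 libraries, and the part of processing in the difference was not tested. Smooth muscle and pericyte markers, from cells that also make elastin, summed to 599 to 611 CPM in control 1 to 3 and 564 to 585 CPM in control 4 to 6. Eln shares 267 exon bases with the antisense gene Gm30003, and without a stated strand setting reads of both cannot be told apart.

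Fibrillin 1, the backbone of the microfibril, rose least of the 6 genes called. Fbn1 (gene ID 14118; GRCm38 chromosome 2, 125300594 to 125507993, minus strand, coding for protein) had a lowest, median and highest value of 650, 716 and 787 CPM in control and 782, 814 and 839 CPM in Pfas CKO. In 5 of the 6 Pfas CKO libraries it lay above the highest control library. It rose by 0.18 ± 0.0525 on the log2 scale with TMM scaling (SE; edgeR adjusted p = 0.00749), but the value was -0.057 with library totals alone and -0.10 on log2(TPM + 1), neither of which passed. Against control 1 to 3 alone it did not pass either (0.083, edgeR adjusted p = 0.115), while against control 4 to 6 alone it did (0.27, adjusted p = 1.73e-04). Fbn1 shares 2442 exon bases with Gm9913 on the opposite strand.

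Of the small microfibril-associated glycoproteins that bind fibrillin, Mfap5 was abundant and Mfap2 scarce. Mfap5 (gene ID 50530; GRCm38 chromosome 6, 122505845 to 122529290, plus strand, coding for protein) ran from 164 over a median of 187 to 213 CPM in control and from 204 over 236 to 241 CPM in Pfas CKO. It rose by 0.29 ± 0.0721 on the log2 scale (SE; edgeR adjusted p = 0.00205), a call lost with library totals alone (0.062, adjusted p = 0.425) and with near-identical libraries summed (0.26, adjusted p = 0.164). The control sets differed by nearly as much, since Mfap5 was 0.28 ± 0.0343 higher in control 4 to 6 (edgeR adjusted p = 5.13e-07). This was opposite to the direction of Eln, Fbn1 and Emilin1 in that comparison.

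Mfap2 (gene ID 17150; GRCm38 chromosome 4, 141010418 to 141015984, plus strand, coding for protein) was the least abundant of the 9 genes, with 120 to 195 estimated read counts in a library. It ran from 5.99 over a median of 7.58 to 7.88 CPM in control and from 6.39 over 8.03 to 10.2 CPM in Pfas CKO. The groups overlapped, and the log2 fold change of 0.12 ± 0.109 (SE; edgeR adjusted p = 0.356) turned to -0.12 with library totals alone.

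Mfap4, which binds elastin and fibrillin and has a fibrinogen-like domain, showed a split within Pfas CKO. Mfap4 (gene ID 76293; GRCm38 chromosome 11, 61485431 to 61488900, plus strand, coding for protein) lay at 104 to 117 CPM in all 6 control libraries. It lay at 165 to 178 CPM in Pfas CKO 1, 3, 5 and 6 but at 108 and 102 CPM in Pfas CKO 2 and 4. The first 4 of these libraries were above every control, while Pfas CKO 2 was within the control range and Pfas CKO 4 below it. Over all 6 libraries Mfap4 rose by 0.41 ± 0.123 on the log2 scale (SE; edgeR adjusted p = 0.00757). The call was lost with library totals alone (0.18, adjusted p = 0.192), against control 4 to 6 alone (0.39, adjusted p = 0.0668) and with near-identical libraries summed (0.20, adjusted p = 0.479), and without Pfas CKO 2 and 4 the log2 fold change was 0.60. The control set difference in Mfap4 did not pass (0.027 ± 0.0397, edgeR adjusted p = 0.615). Mfap4 shares 89 exon bases with Mapk7 on the opposite strand.

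The fibulins Fbln5 and Fbln2 had the largest log2 fold changes of the 9 genes, and Fbln1 came after Mfap4. Fbln5 binds elastin and, through an integrin-binding motif, cells, and mice without it fail to assemble normal elastic fibres. Fbln5 (gene ID 23876; GRCm38 chromosome 12, 101746565 to 101819055, minus strand, coding for protein) stood at 37.2, 37.5, 34.7, 38.7, 38.9 and 41.2 CPM in control 1 to 6. In Pfas CKO 1 to 6 it stood at 77.6, 53.1, 81.9, 50.6, 84.5 and 83.6 CPM. Every Pfas CKO library was above every control library, with Pfas CKO 2 and 4 the lowest of their group. It rose from 38.0 ± 2.14 to 71.9 ± 15.7 CPM (SD, n = 6 each), by 0.92 ± 0.122 on the log2 scale (SE; 1.89-fold; edgeR adjusted p = 7.25e-06). Over 27 alternative settings the log2 fold change was 0.60 to 1.17 and the adjusted p at most 0.0191. The control sets differed by 0.10 ± 0.0486 (edgeR adjusted p = 0.0931).

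Fbln2 is a large fibulin that binds fibrillin, elastin and basement membrane proteins and is abundant in developing and remodelling heart tissue. Fbln2 (gene ID 14115; GRCm38 chromosome 6, 91212455 to 91272540, plus strand, coding for protein) ran from 771 over a median of 824 to 885 CPM in control and from 1213 over 1303 to 1683 CPM in Pfas CKO. The groups did not overlap, and the highest value was that of Pfas CKO 2. It rose by 0.70 ± 0.0737 on the log2 scale (SE; 1.62-fold; edgeR adjusted p = 6.72e-07). Over 27 alternative settings the log2 fold change was 0.39 to 0.78 and the adjusted p at most 0.00362. Between the control sets it differed by less, being 0.16 ± 0.0299 lower in control 4 to 6 (edgeR adjusted p = 1.37e-04).

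Fbln1, a fibulin of microfibrils and basement membranes that also binds fibronectin, rose by less. Fbln1 (gene ID 14114; GRCm38 chromosome 15, 85205949 to 85286535, plus strand, coding for protein) ran from 80.3 over a median of 85.4 to 90.9 CPM in control and from 94.1 over 113 to 122 CPM in Pfas CKO. It rose by 0.37 ± 0.0638 on the log2 scale (SE; edgeR adjusted p = 8.97e-05), but was not called with library totals alone (0.14, adjusted p = 0.0660), on log2(TPM + 1) (0.070, adjusted p = 0.371) or with near-identical libraries summed (0.30, adjusted p = 0.0969). Fbln1, Fbln2 and Fbln5 were thus 3 of the 9 genes whose groups did not overlap in CPM, against 47.1% of all genes tested, or 23.2% with Pfas CKO the higher group.

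The 250 bases before the start sites of Fbln5 and Fbln1 are shown as sequence context for 2 genes that rose, and were chosen because these windows hold no annotated exon. Windows from RefSeq (GRCm38.p6) were matched by symbol for 6 of the 9 genes, and the other 4 of these overlapped exons. That of Fbln1 is chr15:85205699-85205948 on the plus strand. That of Fbln5 is chr12:101819120-101819369 on the minus strand, before the most upstream RefSeq start, which lies outside the GENCODE M21 gene. Capitals mark a match, on either strand, to any of the motifs TGANTCA for AP-1, GGGCGG for Sp1, TATAAA for the TATA box, CCAAT for the CCAAT box and ACGTG for the core of the hypoxia response element.
Fbln1: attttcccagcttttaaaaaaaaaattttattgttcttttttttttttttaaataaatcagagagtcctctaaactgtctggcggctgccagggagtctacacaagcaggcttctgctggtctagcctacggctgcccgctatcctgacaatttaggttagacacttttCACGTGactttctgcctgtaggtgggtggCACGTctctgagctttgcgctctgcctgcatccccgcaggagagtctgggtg
Fbln5: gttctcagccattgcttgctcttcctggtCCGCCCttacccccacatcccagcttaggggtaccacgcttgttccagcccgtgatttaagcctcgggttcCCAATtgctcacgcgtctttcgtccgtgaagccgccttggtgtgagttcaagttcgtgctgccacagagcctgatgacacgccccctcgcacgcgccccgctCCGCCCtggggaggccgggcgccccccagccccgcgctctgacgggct
The Fbln1 window held 3 matches to the hypoxia core, 2 of which overlap as opposite strands of 1 palindrome, and none to the other motifs. The Fbln5 window held 2 Sp1 matches and 1 CCAAT box, and none to the others. Among the 27025 genes with such a window, the hypoxia core was in 16.6%, the Sp1 motif in 32.9%, the CCAAT box in 34.5%, the TATA box in 13% and the AP-1 motif in 6.87%. The windows thus had no motif in common from this list, and GC content was 46.4% for Fbln1 and 65.2% for Fbln5.

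Emilin1, a glycoprotein at the interface of elastin and microfibrils that also restrains TGF-beta processing, followed the control sets. Emilin1 (gene ID 100952; GRCm38 chromosome 5, 30913402 to 30921277, plus strand, coding for protein) stood at 115, 119 and 128 CPM in control 1 to 3 and at 82.9, 87.5 and 85.3 CPM in control 4 to 6. In Pfas CKO it ran from 113 over a median of 116 to 129 CPM. The Pfas CKO libraries therefore overlapped control 1 to 3 and lay above control 4 to 6. The log2 fold change was 0.19 ± 0.103 (SE; edgeR adjusted p = 0.110), with 0.46 against control 4 to 6 alone (adjusted p = 1.76e-05) and -0.037 against control 1 to 3 alone (adjusted p = 0.579). Without control 3 it passed (0.26, adjusted p = 0.0250).

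**Figure D2:**
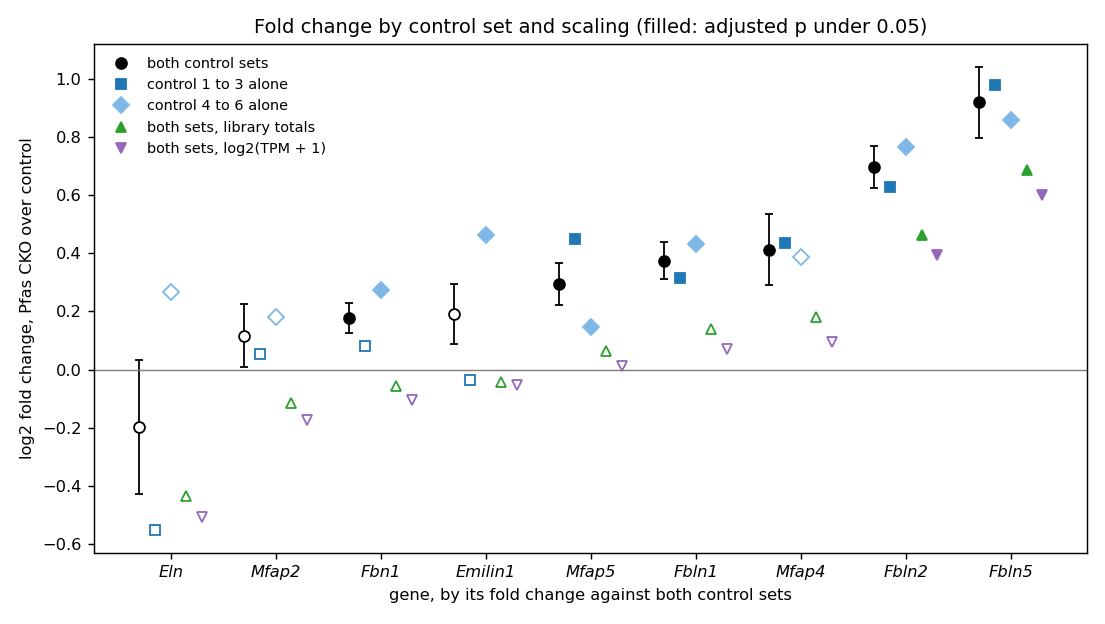
Log2 fold change of each gene, Pfas CKO over control, against both control sets (black, bars are the SE), against control 1 to 3 or control 4 to 6 alone, and against both sets with library totals or on log2(TPM + 1); filled symbols passed an adjusted p of 0.05. Fbln2 and Fbln5 are filled in every setting shown, Eln and Emilin1 change sign between the control sets, and Fbn1, Mfap2 and Emilin1 turn below 0 with library totals and on TPM.

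The control sets differed in most of these genes. Control 4 to 6 against control 1 to 3, both of the control genotype, called 5 of the 9 genes lower and 1 higher, against 45.5% of 13727 genes in either direction, 22% lower and 23.5% higher (edgeR, adjusted p under 0.05). None of the 9 reached a 2-fold difference there, as 0.728% of all genes did. The lower ones were Eln, Emilin1 (-0.52 ± 0.0407), Fbn1 (-0.21 ± 0.0314), Fbln2 and Fbln1 (-0.14 ± 0.0364), and the higher one was Mfap5. Mfap2, Mfap4 and Fbln5 did not pass. The median over the 9 genes was -0.15 and over all genes -0.0022. With TMM scaling this difference within a genotype was larger in size than the fold change between the genotypes for Eln, Emilin1, Fbn1 and Mfap2. For Mfap2 neither passed, and for the other 5 genes the difference was smaller. On log2(TPM + 1) the fold change between the genotypes was 0.012 for Mfap5 and 0.070 for Fbln1. Their control set differences were 0.26 to 0.31 and -0.16 to -0.13 over 9 alternative settings, all on counts. The calls and SEs between control sets rest on near-copy libraries within each set, so they do not measure variation between sets. Batch and biology of the control sets cannot be told apart.

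Levels can be compared between genes in TPM, which corrects for gene length. In control the order of mean TPM was Fbln2 (456 ± 37.8), Mfap5 (307 ± 28.1), Mfap4 (177 ± 5.67), Fbn1 (175 ± 17.9), Fbln1 (75.7 ± 6.27), Emilin1 (69.6 ± 14.3), Eln (59.7 ± 19.8), Fbln5 (36.3 ± 1.44) and Mfap2 (17.8 ± 1.85; SD, n = 6 each). Mfap4 and Fbn1 overlapped in range, as did Fbln1, Emilin1 and Eln, so the order within these is not resolved. In Pfas CKO the mean TPM levels were 600 ± 67.4 for Fbln2, 309 ± 19.2 for Mfap5, 194 for Mfap4 (range 133 to 233), 162 ± 5.05 for Fbn1, 79.6 ± 7.45 for Fbln1, 65.9 ± 2.48 for Emilin1, 56.9 for Fbln5 (range 39.7 to 66.7), 42.1 ± 14.2 for Eln and 15.7 ± 2.46 for Mfap2. Fbln5 and Eln thus changed places in the order of the means, but their ranges overlapped in Pfas CKO, as did those of Mfap4 and Fbn1, of Fbln1 and Emilin1, and of Emilin1 and Fbln5. Fbln2 alone made up 32.2% to 34.9% of the summed TPM of the 9 genes in control and 35.9% to 47.0% in Pfas CKO.

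**Figure D3:**
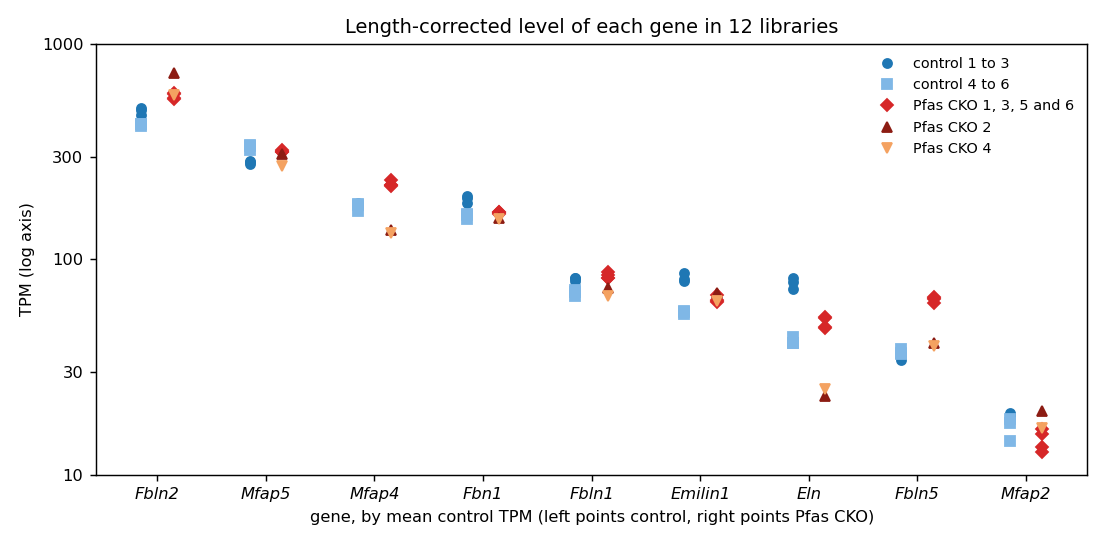
TPM (log axis) of the 9 genes in every library, ordered by mean control TPM; for each gene control libraries are on the left and Pfas CKO libraries on the right, coloured by near-identical set. Fbln2 is the highest and Mfap2 the lowest in both groups, and Fbln5 lies at 34.2 to 38.5 TPM in control and 39.7 to 66.7 TPM in Pfas CKO.

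Ratios of TPM within a library do not depend on scaling between libraries. They were formed after the values had been seen and were not tested. Fbln2 per Fbn1 was 2.56 to 2.70 in control and 3.35 to 4.70 in Pfas CKO, and Fbln5 per Fbn1 was 0.178 to 0.238 and 0.257 to 0.406. Neither ratio overlapped between the groups, whereas those of the other 6 genes to Fbn1 did. The share of all genes whose ratio to Fbn1 does not overlap was not computed. In CPM 47.1% of all genes tested did not overlap, or 23.2% with Pfas CKO the higher group. Fbln5 per Eln was 0.419 to 0.488 in control 1 to 3, 0.883 to 0.892 in control 4 to 6, and in Pfas CKO it lay at 1.17 to 1.76. Transcripts of Eln therefore outnumbered those of Fbln5 per length in each control library, and those of Fbln5 outnumbered Eln in each Pfas CKO library. Eln per Fbn1 was 0.399 to 0.425 in control 1 to 3, 0.257 to 0.268 in control 4 to 6, 0.288 to 0.328 in Pfas CKO 1, 3, 5 and 6, and 0.148 and 0.163 in Pfas CKO 2 and 4.

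The 9 genes differed in how Pfas CKO 2 and 4 stood to the other 4 Pfas CKO libraries. The share of all genes that set both libraries apart was not computed, so the split is not shown to be particular to these genes. Eln, Fbln5 and Mfap4 were lower there than in the other 4 Pfas CKO libraries, at 43.4 and 47.5 against 88.3 to 98.8 CPM for Eln, 53.1 and 50.6 against 77.6 to 84.5 CPM for Fbln5, and 108 and 102 against 165 to 178 CPM for Mfap4. Fbln1 was lower as well, at 103 and 94.1 against 112 to 122 CPM. Mfap2 was at 10.2 and 8.39 against 6.39 to 8.22 CPM. Its estimated read counts were 156 in Pfas CKO 4 and 155 in Pfas CKO 5, so Pfas CKO 4 was not clearly apart. Fbln2, Fbn1, Mfap5 and Emilin1 did not set both libraries apart. In these libraries macrophage markers summed to 7903 and 7200 CPM against 8207 to 8968 CPM in the other 4, and endothelial markers to 947 and 967 against 1173 to 1206 CPM. Neutrophil markers summed to 209 and 178 against 126 to 132 CPM. Fibroblast markers summed to 16482 and 17623 against 15640 to 15884 CPM, and smooth muscle and pericyte markers to 657 and 681 against 671 to 695 CPM. The part of these differences in the split was not tested, and neither was the split itself, since the libraries were set apart by their values. Without both libraries the log2 fold changes were 1.10 for Fbln5 and 0.60 for Fbln2. The number of the 9 genes called higher was again 6, against 33.4% of all genes.

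**Figure D4:**
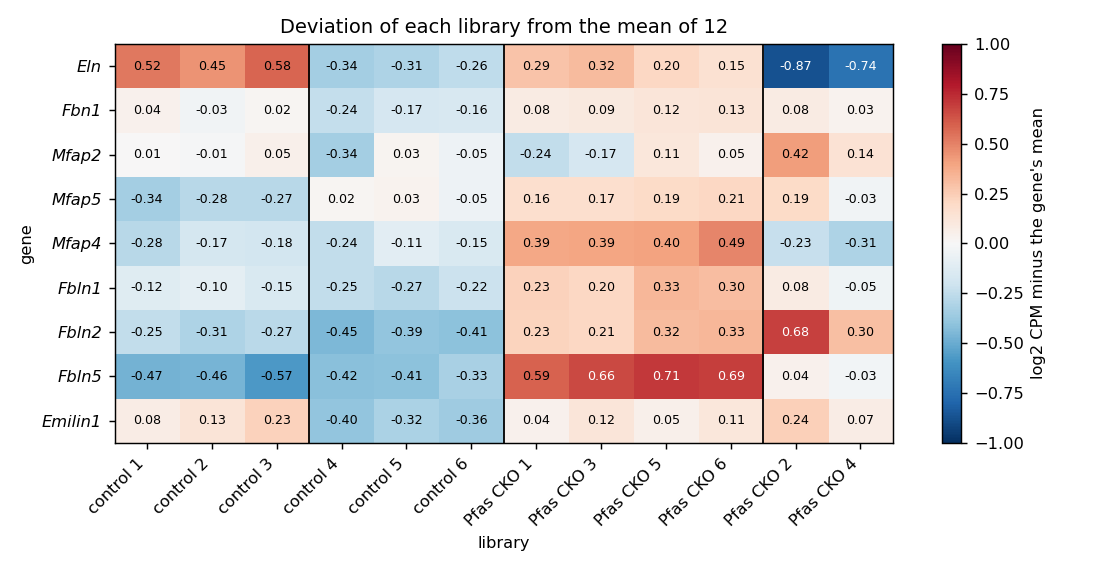
Log2 CPM of each gene in each library minus the mean of that gene over the 12 libraries (TMM scaling); columns are libraries, with lines between near-identical sets, and rows are genes. Eln ranges from 0.58 in control 3 to -0.87 in Pfas CKO 2, Fbn1 from -0.24 to 0.13, and Fbln5 is at 0.59 to 0.71 in Pfas CKO 1, 3, 5 and 6 against 0.039 and -0.03 in Pfas CKO 2 and 4.

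Other genes on lists of elastic fibre proteins, their families, cross-linking enzymes, receptors and proteases moved in both directions. Of 69 such genes in 8 lists, 62 were tested, and 30 were higher, 13 lower and 19 not called, or 48.4% and 21.0% against 33.4% and 35.2% of all genes. With library totals alone 23 of 62 were higher and 24 lower, against 20.4% and 53% of all genes. On log2(TPM + 1) 15 of the 55 tested were higher and 23 lower, against 18.3% and 58.6% of all genes. Their median log2 fold change was 0.21 with TMM.

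Among the other fibrillins, fibulins, EMILINs and MFAPs, 4 of 11 were higher and 3 lower with TMM, with a median of 0.033, whereas 3 were higher and 6 lower with library totals and 2 and 5 on log2(TPM + 1). Emilin2, a relative of Emilin1, fell from 533 ± 46.6 to 221 ± 19.4 CPM (SD, n = 6 each), by 1.27 on the log2 scale (edgeR adjusted p = 3.25e-10). Hmcn2, a hemicentin of the fibulin family, rose from 15.5 ± 2.24 to 36.8 ± 4.97 CPM. Mfap3l, listed by its family name and not for a known part in elastic fibres, rose from 8.93 ± 1.05 to 16.4 ± 1.76 CPM. Emilin1 and Emilin2 therefore differed in what the test called, though the difference between them was not tested.

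Of the 7 latent TGF-beta binding proteins and TGF-beta ligands, 3 were higher and none lower with TMM, with a median of 0.17, whereas 2 were higher and 2 lower with library totals and 1 and 2 on log2(TPM + 1). Ltbp4, which is needed for elastic fibre assembly together with Fbln5, rose from 199 ± 31.8 to 413 ± 102 CPM, by 1.06 ± 0.155 on the log2 scale (SE; edgeR adjusted p = 2.14e-05). Like Fbln5 it was lower in Pfas CKO 2 and 4, at 307 and 259 CPM, than in the other 4 libraries, at 464 to 487 CPM. Tgfb2, a ligand, rose by 0.45 (adjusted p = 1.31e-04), a call lost on log2(TPM + 1) (0.16, adjusted p = 0.117) and with near-identical libraries summed (0.35, adjusted p = 0.106). Ltbp2 was at 0.29 ± 0.119 (adjusted p = 0.0435), and its call was lost in 15 of 27 alternative settings, in 2 of which the value was below 0.

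Of 5 lysyl oxidases, which cross-link elastin and collagen, 1 was higher and 3 lower with TMM, with a median of -0.14. Of all genes 33.4% were higher and 35.2% lower. With library totals 4 lysyl oxidases were lower, and with near-identical libraries summed 1 was. Their summed level was 1412 to 1432 CPM over control and 1454 to 1570 CPM over Pfas CKO libraries, so the calls do not show a fall of the family as a whole. Lox rose from 573 ± 63.8 to 767 ± 62.8 CPM, by 0.42 on the log2 scale (edgeR adjusted p = 1.38e-04), a call lost on log2(TPM + 1), at 0.13 with an adjusted p of 0.124. Loxl4 fell from 15.5 ± 1.34 to 8.14 ± 1.12 CPM and Loxl3 from 147 ± 10.7 to 123 ± 6.77 CPM, the latter not passing with near-identical libraries summed (-0.21, adjusted p = 0.190). Of 8 tested ADAMTS and ADAMTSL proteins associated with microfibrils, 3 were higher and 1 lower with TMM, with a median of 0.26, whereas 3 were higher and 3 lower with library totals and 1 and 3 on log2(TPM + 1). Adamtsl3 rose by 0.94 and Adamtsl1 by 0.86 on the log2 scale, and the protease gene Adamts6 fell by 0.83.

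The tested proteases able to cut elastin and their inhibitors were called in opposite directions in most cases. Of 6 tested proteases 4 were lower and 2 higher, with a median of -0.61. The list held 11, and Mmp7, Elane (neutrophil elastase), Prtn3, Ctsg and Ctsv were not tested. Ctss, the lysosomal cysteine protease cathepsin S, fell from 1902 ± 233 to 1047 ± 29.5 CPM, and Mmp12, macrophage elastase, from 715 ± 88.4 to 315 ± 70.0 CPM. Mmp2, a gelatinase of fibroblasts, rose from 123 ± 4.28 to 310 ± 75.0 CPM (n = 6 each; edgeR adjusted p = 3.86e-08 for Ctss, 5.40e-07 for Mmp12 and 4.00e-07 for Mmp2). With near-identical libraries summed, the edgeR adjusted p was 0.00111 for Ctss, 0.00306 for Mmp12 and 0.00445 for Mmp2. Macrophages express Ctss and Mmp12. Of the 14 macrophage markers 6 were higher and 5 lower, against 33.4% and 35.2% of all genes. The median log2 fold change of these markers was -0.025. The part of macrophages in these values was not tested. Of 9 inhibitors 6 were higher and none lower with TMM, with a median of 0.75, whereas 6 were higher and 1 lower with library totals and 4 and 1 on log2(TPM + 1). Slpi, an inhibitor of neutrophil elastase, rose from 76.5 ± 3.96 to 310 ± 111 CPM, the serpin Serpina3n from 122 ± 4.32 to 254 ± 21.6 CPM, and Timp4, a metalloproteinase inhibitor at very low level, from 0.363 ± 0.131 to 1.49 ± 0.335 CPM.

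All 5 proteoglycan and fibronectin genes on the list were higher with TMM scaling, with a median of 0.30, but 1 of 5 on log2(TPM + 1) and 2 of 5 with library totals alone. Dcn, decorin, also counted here as a fibroblast marker, rose by 0.64 (edgeR adjusted p = 1.59e-05) and passed in all alternative settings. Vcan, versican, was 0.45 higher and Bgn, biglycan, 0.30 higher, and neither passed on log2(TPM + 1), at 0.031 and 0.011 with adjusted p-values of 0.633 and 0.833. Of 11 integrins and genes of the elastin receptor complex, 6 were higher and 2 lower with TMM, with a median of 0.28, whereas 4 were higher and 4 lower both with library totals and on log2(TPM + 1). Itgav, the integrin subunit that binds RGD motifs in fibrillin and latent TGF-beta, rose from 280 ± 59.9 to 700 ± 89.9 CPM, its partner Itgb3 from 111 ± 6.25 to 167 ± 8.92 CPM, and its partner Itgb8 from 1.08 ± 0.223 to 4.25 ± 0.537 CPM (SD, n = 6 each; edgeR adjusted p = 2.57e-07, 8.06e-08 and 7.95e-09). With near-identical libraries summed, the edgeR adjusted p was 0.00106 for Itgav, 0.00271 for Itgb3 and 1.23e-04 for Itgb8.

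**Figure D5:**
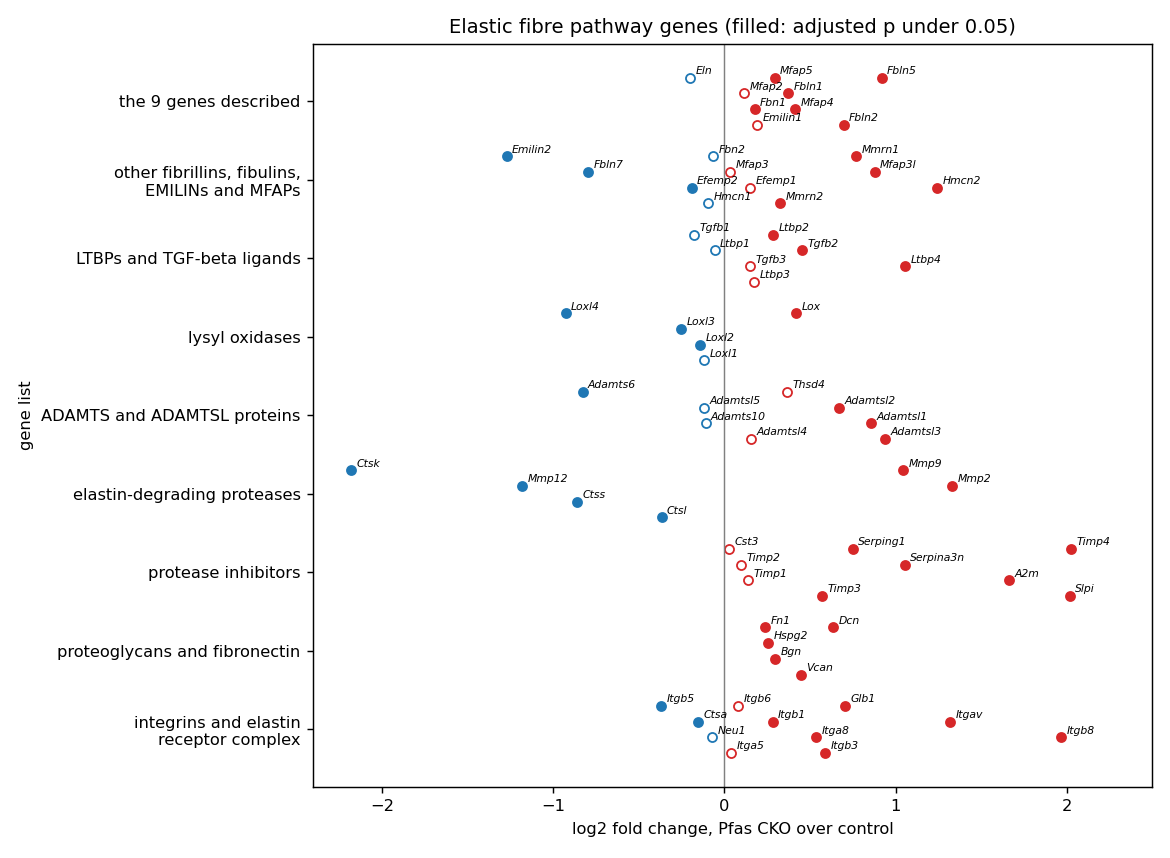
Log2 fold change (Pfas CKO over control, TMM scaling) of every tested gene of the 9 genes described and of 8 related lists; red is above 0, blue below 0, and filled points passed an adjusted p of 0.05. Elastin-degrading proteases lie on both sides, with Mmp2 at 1.33 and Ctss at -0.86, while the inhibitors called lie on the right, with Slpi at 2.02; with library totals the median of all genes moves from -0.024 to -0.26.

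Genes whose profile over the 12 libraries was closest to that of Eln and Fbn1 were found by the root mean square difference between log2 CPM values centred per gene, among 11411 other genes that averaged 2 CPM or more and have a gene name rather than a clone number. Closest to Eln were Cd248, which encodes endosialin of stromal cells, Fcho1 and the B cell surface gene Cd72, at 0.220, 0.222 and 0.227, where the spread of Eln itself was 0.469. Closest to Fbn1 were Mta2, Acvrl1 and Clmp, at 0.0261, 0.0310 and 0.0344, where the spread of Fbn1 was 0.118. None of the other 8 genes described was among these for either gene.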

How the data were processed

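Poly(A)-selected RNA of 6 control and 6 Pfas CKO libraries was used, grouped by their labels. The authors deposited estimated counts, TPM and FPKM per gene, per the file headers. These estimated counts carry no normalization, and the TPM and FPKM values were scaled per library. Bowtie2, RSEM and DESeq2 are listed for 9 libraries, and the build GRCm38 for all, per the submitters' processing notes. The sources used here name no annotation, strand setting or filter. A column with the authors' mean FPKM of control 1 to 3 was not used, and 1067 genes with blank values were left out of 18771.

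Rounded counts went into edgeR 4.0.16 under R 4.3.3, with TMM, filterByExpr and the quasi-likelihood test, group being the only term. CPM values are TMM-scaled, and each SE is the absolute log2 fold change over the root of F. FPKM gave the implied gene lengths. The test was also run on simulated counts of independent libraries, a check that does not cover near-identical libraries. Alternatives used RLE or library-total scaling, DESeq2 1.42.0, limma 3.58.1 (voom, or log2(TPM + 1) and log2(TPM + 0.1) at a mean TPM of at least 1), other filters, a replicate block, libraries or control sets left out, and near-identical libraries summed. Comparisons of a single control set with Pfas CKO 1, 3, 5 and 6, and control libraries left out of the control set comparison, were chosen after seeing the data.

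The 9 genes and all gene lists were chosen with earlier results of these data known. Named genes were the 9, Pfas, the 3 called genes with the smallest p per pathway list, and the 3 nearest profiles to Eln and to Fbn1. The most abundant gene of each marker list was also named. Positions are from GENCODE M21.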

Additional observations from a re-analysis of the deposited data

Results flagged for a closer look

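Each of the 9 genes was examined in both groups for a library far from the other 5, 18 groups in all. By Dixon's test at the 95% level 3 stood out. Chance gives this in about 1 of 20 groups of independent libraries. Near-identical libraries are not independent, so that rate does not hold here. Fbln2 in Pfas CKO 2 was at 1683 CPM, with the other Pfas CKO libraries at 1213 to 1323 CPM. Mfap5 in Pfas CKO 4 was at 204 CPM, with the others at 234 to 241 CPM. Mfap2 in control 4 was at 5.99 CPM, with the others at 7.31 to 7.88 CPM and 120 to 195 estimated read counts per library behind each value. Without Pfas CKO 2 the log2 fold change of Fbln2 was 0.61, and without Pfas CKO 4 that of Mfap5 was 0.32, both still called higher by edgeR.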

How the results depend on the processing

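Fbln2, Fbln5 and Pfas kept their direction and their call in all 27 alternative settings (log2 fold change 0.39 to 0.78, 0.60 to 1.17 and -1.40 to -0.80). The cause of the changes below was not tested. Library totals alone called 2775 genes higher, 7202 lower, 2 of the 9 higher and 24 related genes lower. With log2(TPM + 1) these were 2279, 7280, 2 and 23, with 15 related genes higher, and with log2(TPM + 0.1) they were 2271, 7263, 2, 23 and 15. With near-identical libraries summed, which leaves fewer samples, they were 2786, 2878, 2, 8 and 19. The share of all genes called higher was 20.4% with library totals, 18.3% on either TPM scale and 18.3% with libraries summed.

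For library totals, log2(TPM + 1) and log2(TPM + 0.1) in turn, the log2 fold changes were -0.057, -0.10 and -0.11 for Fbn1, -0.12, -0.17 and -0.18 for Mfap2, and -0.043, -0.054 and -0.054 for Emilin1, all reversed. They were 0.14, 0.070 and 0.071 for Fbln1, 0.18, 0.094 and 0.094 for Mfap4, and 0.062, 0.012 and 0.012 for Mfap5, no longer called. Ltbp2 reversed on both TPM scales (-0.021 and -0.022). With libraries summed, Fbn1 (0.17), Fbln1 (0.30), Mfap4 (0.20) and Mfap5 (0.26) were not called.

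Against control 1 to 3 alone Fbn1 (0.083) was not called and Emilin1 reversed (-0.037). Against control 4 to 6 alone Eln reversed (0.27), Mfap4 (0.39) was not called and Emilin1 was (0.46). Without Pfas CKO 2 and 4 Eln (0.060) and Mfap2 (-0.022) reversed. Pfas CKO 1, 3, 5 and 6 gave 0.54 for Eln and 0.44 for Emilin1 against control 4 to 6, both called, and -0.28 for Eln, called as the 1 lower gene of the 9, -0.074 for Mfap2 and -0.063 for Emilin1 against control 1 to 3.

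With each library left out in turn, 6 to 7 of the 9 genes were higher, against 32% to 33.1% of all genes. Emilin1 ranged from 0.14 to 0.26, called without control 3. In the control set comparison Mfap4 ranged from -0.0063 to 0.063 with control libraries left out, reversed but not called without control 1 and without control 5. Same-numbered control and Pfas CKO libraries had deviations correlated at -0.0441 to 0.166, over 0.1 in 2 of 6 pairs, and 2 of 6 correlated best with their own number, so the numbers were not taken as pairs. A replicate block gave 4529 genes higher and 4755 lower and called Emilin1 (0.21, edgeR adjusted p = 0.0453). Mfap2, at 120 to 195 read counts in a library, was the gene most limited by depth.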
